A study of Rattus norvegicus with 6 samples.

Results

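Animals detect bacteria through receptors for molecules that bacteria share. Toll-like receptors at the cell surface bind lipopolysaccharide (LPS), lipoproteins and flagellin, those in endosomes bind nucleic acids, and most of them signal through the adaptor Myd88 to NF-κB and to genes of inflammation. In the intervertebral disc these receptors are found on disc cells as well as on macrophages, and fragments of the disc matrix are known as further ligands of Tlr2 and Tlr4. The genes described here are Tlr2, Tlr3, Tlr4, Tlr5, Tlr7, Tlr9, the co-receptors Cd14 and Ly96, the adaptor Myd88 and the cytoplasmic sensor Nod2, chosen by name because the carrier under study contains bacterial membrane. All 10 were found among the 30562 genes of the count table, each in a single row whose span met no other annotated gene.

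The study injected discs with AF-PTK@LEV@SPP1, a liposome fused with outer membrane vesicles of a bacterium whose lipid A had been weakened by deleting an acyltransferase gene. The vesicle carries a peptide that binds the annulus fibrosus through a linker that reactive oxygen species cut, and an siRNA designed on mouse Spp1. The rats were wild type (WT) male Sprague-Dawley animals aged 12 weeks, and a needle puncture of the tail disc was the injury in both groups. The control group received PBS by the study's account, and the other group got 10 μL of AF-PTK@LEV@SPP1 holding siRNA at 1 mg/kg, first 24 h after the puncture, over 8 weeks of treatment. Sample records differ from this account: they name an untreated control, treatment for 14 days, and macrophages sorted from digested mouse discs. No disc without injury, empty vesicle or vesicle with an inactive siRNA was among these libraries, so the vesicle, its bacterial membrane and its cargo cannot be told apart.

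RNA was counted in 6 libraries, 3 per group, with 17942989, 16565291 and 17489851 counts in control replicates 1, 2 and 3 and 17074981, 15560728 and 17855184 in libraries labelled AF-PTK@LEV@SPP1. Control replicates 2 and 3 differed by little more than sampling noise: the chi-square of their counts was 1.33 per degree of freedom, and 0.111% of genes differed, against 51.3 to 107 and 39.5% to 56.6% for the other pairs within a group. They were counted as 1 sample, which leaves n = 2 distinct samples for control and n = 3 for the label AF-PTK@LEV@SPP1. Spp1, the target of the siRNA, stood at 8123, 4411 and 4417 normalized CPM in control and at 8054, 6903 and 8461 in libraries labelled AF-PTK@LEV@SPP1, so it was not lower there and does not check the labels, which the directions given here follow. Normalized CPM are counts scaled to library size after the trimmed mean of M-values (TMM). Transcripts of whole disc were present in every library: Col2a1, the main collagen of cartilage, stood at 13873, 21125 and 20933 normalized CPM in control and at 25962, 20375 and 31980 under the label AF-PTK@LEV@SPP1. Tbxt, the transcription factor of notochord-derived nucleus pulposus cells, ranged from 17.3 to 757, and no library had the near absence of matrix genes that sorted macrophages would show.

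Of the 10 genes, Tlr2, Cd14 and Ly96 were lower in libraries labelled AF-PTK@LEV@SPP1, and none was called higher. Tlr2 stood 5.84-fold, Cd14 3.70-fold and Ly96 2.27-fold lower by the ratio of group means. Tlr4, the signaling receptor that Cd14 and Ly96 serve, did not pass the test and its groups overlapped. In edgeR's quasi-likelihood test over the 5 distinct samples, 3 of 10 passed at a Benjamini-Hochberg adjusted p under 0.05, beside 3.70% of the 15537 genes tested (575 genes; 2.57% lower and 1.13% higher). That share depends on the fit: with the 6 libraries kept 18.1% of genes passed (1494 lower and 1233 higher), and in DESeq2 2572 genes did (1440 lower and 1132 higher), while the same 3 of 10 passed in each. All 10 entered the test, and their median log2 fold change was -0.42, against 0.05 over all genes tested. Libraries of each group did not overlap for 4 genes that were lower (Tlr2, Cd14, Ly96 and Myd88) and for 2 that were higher (Tlr5 and Tlr9), beside 20.1% and 21.8% of all genes tested, so separation of the groups alone was common in these libraries.

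**Figure D1:**
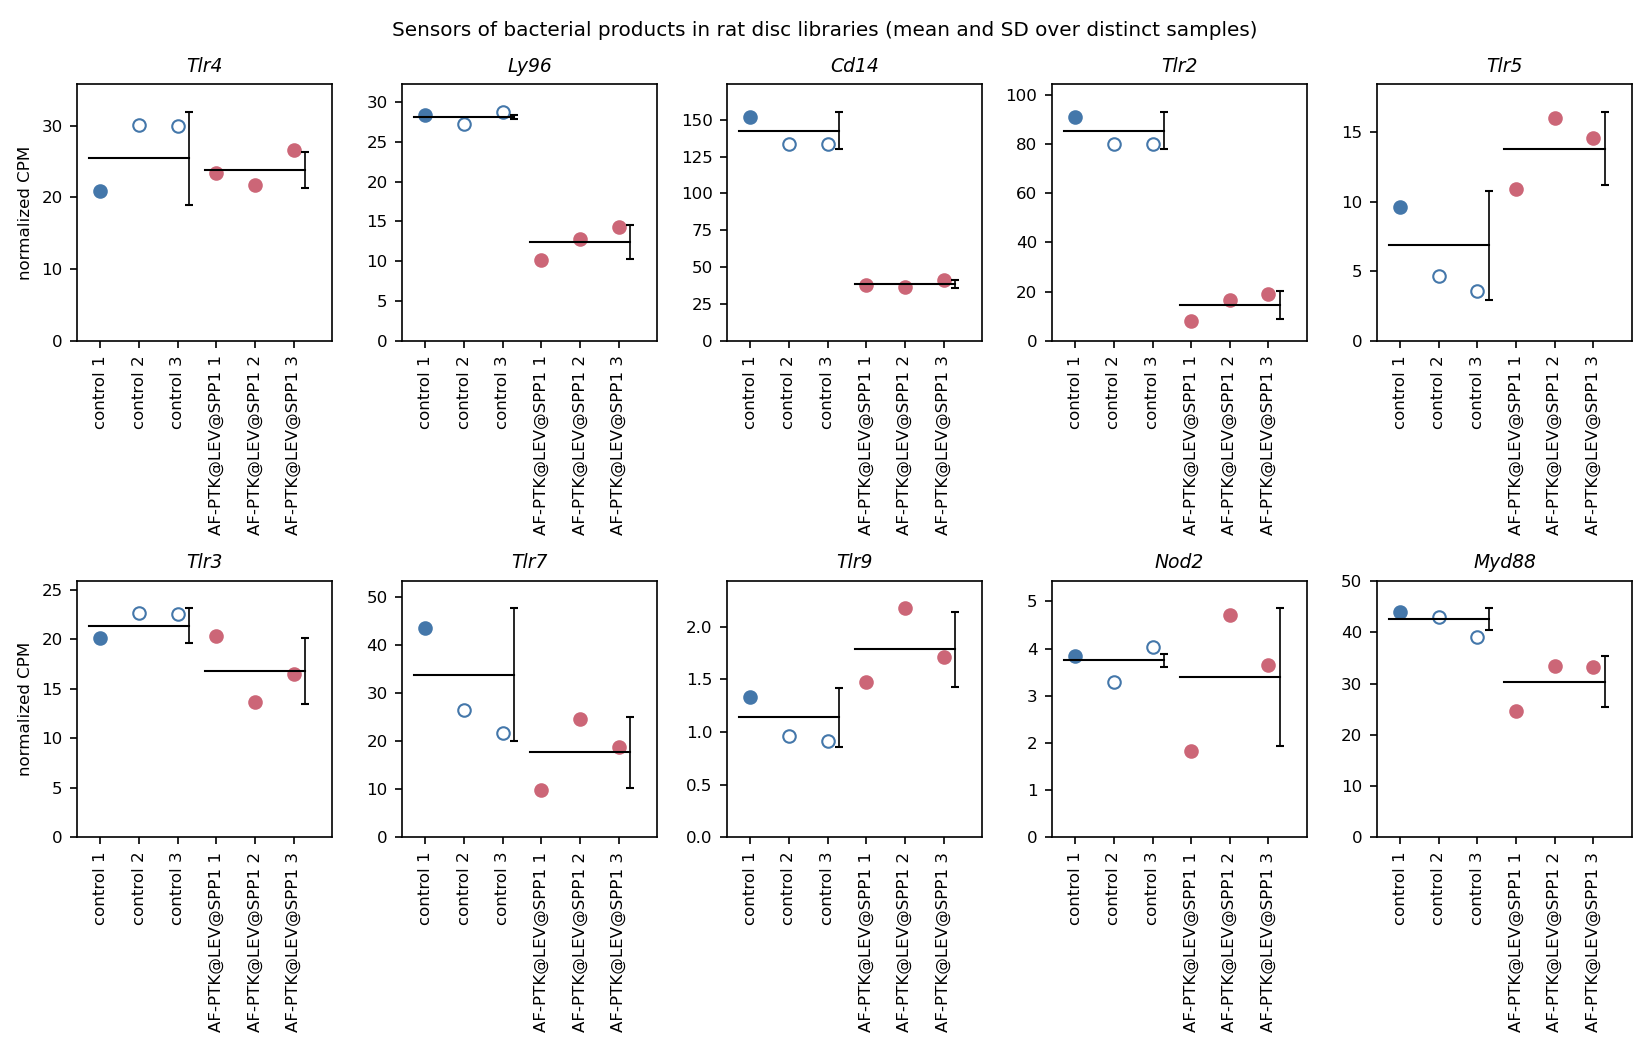
Normalized CPM of each of the 10 genes in the 6 libraries, with control in blue and AF-PTK@LEV@SPP1 in red; open circles are the near-identical control replicates 2 and 3, counted as 1 sample, and bars give the mean and SD over distinct samples (n = 2 and n = 3). Each panel has its own axis from 0, and Tlr2, Cd14 and Ly96 show a gap between the groups while Tlr4 does not.

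Tlr4 binds LPS together with Ly96, also called MD-2, the secreted protein whose pocket holds the lipid A. Tlr4 (ENSRNOG00000010522, chromosome 5, 80145826 to 80159628, plus strand) had 20.9, 30.1 and 29.9 normalized CPM in control replicates 1, 2 and 3 and 23.3, 21.7 and 26.6 in libraries labelled AF-PTK@LEV@SPP1. Control replicate 1 was the lowest of the 6 libraries and the other control libraries the highest, so the groups overlapped. The means were 25.4 ± 6.48 (SD, n = 2) and 23.9 ± 2.49 (SD, n = 3), and the log2 fold change was -0.10 with a standard error of 0.20 (edgeR adjusted p = 0.773). Without the control pair the sign turned, to 0.19.

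Ly96 (ENSRNOG00000067966, chromosome 5, 2582254 to 2612386, minus strand) had 28.4, 27.2 and 28.8 normalized CPM in control and 10.2, 12.7 and 14.3 in libraries labelled AF-PTK@LEV@SPP1. The control libraries lay close together, and every library of the other group was under them. Means of 28.2 ± 0.260 (SD, n = 2) and 12.4 ± 2.09 (SD, n = 3) gave a log2 fold change of -1.19 with a standard error of 0.17 (edgeR adjusted p = 0.0377). These are bulk samples, in which fewer cells of a type and less RNA per cell cannot be told apart. Cd14, the protein that hands LPS to the complex of Tlr4 and Ly96 (ENSRNOG00000017819, chromosome 18, 28335340 to 28337261, minus strand), had 152, 134 and 134 normalized CPM in control and 38.2, 36.1 and 41.5 in libraries labelled AF-PTK@LEV@SPP1. Within each group its values were near each other, and the groups were far apart. The means were 143 ± 12.7 (SD, n = 2) and 38.6 ± 2.70 (SD, n = 3), with a log2 fold change of -1.89 and a standard error of 0.12 (edgeR adjusted p = 0.0119). In the ranking of all 15537 genes by log2 fold change, Cd14 was number 313 from the lowest and Ly96 number 722.

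Tlr2 recognises bacterial lipoproteins in pairs with Tlr1 or Tlr6. Tlr2 (ENSRNOG00000009822, chromosome 2, 169197419 to 169206630, minus strand) had 90.8, 80.1 and 80.0 normalized CPM in control and 8.17, 16.7 and 19.0 in libraries labelled AF-PTK@LEV@SPP1. The lowest control library was more than 4 times the highest of the other group, and replicate 1 labelled AF-PTK@LEV@SPP1 was the lowest of all. The means were 85.4 ± 7.56 (SD, n = 2) and 14.6 ± 5.70 (SD, n = 3). Its log2 fold change of -2.55, with a standard error of 0.36, was the lowest of the 10 genes and number 166 from the lowest of all genes (edgeR adjusted p = 0.0349). For Tlr2, Cd14 and Ly96 an exact two-sided permutation test over the 5 distinct samples gave p = 0.1, the smallest that 3 samples against 2 allow. The 3 calls rest on few samples. Without the library labelled AF-PTK@LEV@SPP1 replicate 2 or 3, or without the control pair, none of the 3 passed, with adjusted p from edgeR of 0.0999, 0.137 and 0.137 for Tlr2, 0.0679, 0.130 and 0.0673 for Cd14, and 0.105, 0.137 and 0.165 for Ly96. Without control replicate 1 the adjusted p was 0.0820 for Tlr2 and 0.0928 for Ly96, and without the library labelled AF-PTK@LEV@SPP1 replicate 1 it was 0.0565 for Ly96, while the log2 fold changes stayed within -2.78 to -2.30, -1.98 to -1.81 and -1.30 to -1.10 for Tlr2, Cd14 and Ly96.

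Tlr5 binds flagellin. It lies on chromosome 13 (ENSRNOG00000022067, 94634801 to 94657738, plus strand) and had 9.60, 4.63 and 3.54 normalized CPM in control and 10.9, 16 and 14.5 in libraries labelled AF-PTK@LEV@SPP1. The groups did not overlap, but control replicate 1 came close to the lowest library of the other group. The means were 6.85 ± 3.90 (SD, n = 2) and 13.8 ± 2.63 (SD, n = 3), and the log2 fold change of 1.01 with a standard error of 0.41 did not pass (edgeR adjusted p = 0.204, exact permutation p = 0.2). Control replicate 1 set much of this value: the log2 fold change was 1.74 without it and 0.51 without the control pair.

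Among the endosomal receptors, Tlr3 binds double-stranded RNA, Tlr7 single-stranded RNA and Tlr9 unmethylated CpG DNA. Tlr3 (ENSRNOG00000021726, chromosome 16, 46822039 to 46836545, plus strand) had 20.1, 22.7 and 22.5 normalized CPM in control and 20.3, 13.6 and 16.5 in libraries labelled AF-PTK@LEV@SPP1. Tlr7 (ENSRNOG00000004249, chromosome X, 27027425 to 27054754, plus strand) had 43.6, 26.5 and 21.7 against 9.76, 24.6 and 18.7. In both genes the groups overlapped, and control replicate 1 alone was high for Tlr7. Tlr9 (ENSRNOG00000048161, chromosome 8, 106864680 to 106868796, plus strand) was low in every library, with 26, 15 and 15 counts in control and 25, 36 and 30 in libraries labelled AF-PTK@LEV@SPP1, or 1.34, 0.965 and 0.916 against 1.47, 2.17 and 1.71 normalized CPM. Its groups did not overlap once scaled, by a gap smaller than the spread within either group. None of the endosomal receptors passed: the log2 fold changes were -0.36 for Tlr3, -0.94 for Tlr7 and 0.65 for Tlr9, with standard errors of 0.20, 0.44 and 0.37 (edgeR adjusted p = 0.323, 0.251 and 0.324).

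Nod2 senses muramyl dipeptide, a fragment of the bacterial wall, inside the cell. Nod2 (ENSRNOG00000014124, chromosome 19, 18382439 to 18417177, minus strand) had 3.85, 3.28 and 4.03 normalized CPM in control and 1.82, 4.71 and 3.65 in libraries labelled AF-PTK@LEV@SPP1. The groups overlapped, with the lowest and the highest value both under the label AF-PTK@LEV@SPP1, and the log2 fold change of -0.16 with a standard error of 0.43 did not pass (edgeR adjusted p = 0.845). It was 0.11 without the library labelled AF-PTK@LEV@SPP1 replicate 1. Myd88, the adaptor shared by Tlr2, Tlr4, Tlr5, Tlr7 and Tlr9 but not used by Tlr3 (ENSRNOG00000013634, chromosome 8, 119074437 to 119079415, minus strand), had 44.1, 43.0 and 39.1 normalized CPM in control and 24.6, 33.4 and 33.2 in libraries labelled AF-PTK@LEV@SPP1. Every library of the second group was under every control library. The means of 42.6 ± 2.13 (SD, n = 2) and 30.4 ± 5.0 (SD, n = 3) differed by a log2 fold change of -0.49 with a standard error of 0.17, which did not pass (edgeR adjusted p = 0.153, exact permutation p = 0.1).

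Ratios of counts of a pair of genes within the same library do not depend on the scaling between libraries, and gene length cancels when a ratio is compared between groups. There were 4.35, 2.66 and 2.68 counts of Tlr2 per count of Tlr4 in control replicates 1, 2 and 3 and 0.35, 0.772 and 0.715 in libraries labelled AF-PTK@LEV@SPP1, a mean ratio 5.73-fold lower. For Cd14 per Tlr4 the values were 7.27, 4.44 and 4.47 against 1.63, 1.67 and 1.56, and for Ly96 per Tlr4 they were 1.36, 0.904 and 0.961 against 0.436, 0.588 and 0.539. In each of these ratios the groups were apart, so both co-receptors and Tlr2 were lower relative to Tlr4 in the same libraries (exact two-sided permutation test of the log2 ratios, p = 0.1 each, the smallest possible). Myd88 per Tlr4 overlapped between the groups, at 1.31 to 2.11 in control and 1.06 to 1.54 under the label AF-PTK@LEV@SPP1. Tlr7 per Tlr9 did not overlap, at 23.7 to 32.7 against 6.64 to 11.3, though it rests on the few counts of Tlr9. Tlr2 per Tlr5 was also apart, at 9.45, 17.3 and 22.6 in control against 0.751, 1.05 and 1.31, a mean ratio 14.2-fold lower. In all, 6 such pairs were formed after the values of the genes were known, and their p-values were not adjusted.

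Markers of cell types differed between libraries. Of 14 macrophage and monocyte markers, 1 passed as lower beside 2.57% of all genes tested, Cd68, a lysosomal membrane protein (3.90-fold, log2 fold change -1.97, edgeR adjusted p = 0.0231), and the median log2 fold change of the list was -0.74. The summed level of the list was 3172, 2106 and 2091 normalized CPM in control and 736, 2076 and 2078 in libraries labelled AF-PTK@LEV@SPP1, and Lyz2 was its most abundant gene. Lyz2, which neutrophils express as well, stood at 1833, 1267 and 1247 in control and at 272, 1243 and 1401 in libraries of that label. Cd68, Csf1r, Itgam, Mrc1, Mertk and Fcgr1a each lay under every control library in all libraries of the label, a separation seen in 20.1% of all genes tested. The other 8 overlapped, and Cd163, a scavenger receptor, had 54.0, 29.5 and 29.0 in control against 47.2, 143 and 88.3, a mean 2.22-fold higher that did not pass. None of the 14 markers was at 0. Of 5 osteoclast markers, 4 passed as lower (Acp5, Ctsk, Dcstamp and Atp6v0d2), with summed levels of 5369, 3390 and 3401 against 820, 747 and 481 and Ctsk as the most abundant. Osteoclasts come from the monocyte lineage, and their list had a median log2 fold change of -2.72. The 10 neutrophil markers summed to 1203, 194 and 182 in control and 315, 3105 and 4202 in libraries labelled AF-PTK@LEV@SPP1, with S100a9 the most abundant, Ltf at no more than 1 count and none of 9 tested passing.

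Other markers also shifted between libraries. The nucleus pulposus list summed to 1684, 537 and 528 in control and 7152, 3973 and 3496 in libraries labelled AF-PTK@LEV@SPP1, led by Car3, and the adipocyte list to 254, 42.1 and 39.6 against 531, 969 and 399, led by Adipoq. Neither list overlapped between the groups by its sum, and none of their 6 and 5 genes tested passed. With the 6 libraries kept, Krt18, Cd24 and Lep passed as higher (edgeR adjusted p = 0.0205, 0.0196 and 0.0403). In that fit, 2 macrophage, 3 T cell, 2 endothelial, 5 osteoclast and 1 annulus and cartilage markers passed as lower. It also called 1 annulus and cartilage marker higher, and 18.1% of all genes passed in it. With the replicate block added, Krt8, Krt18, Tbxt and Cd24 passed as higher (edgeR adjusted p = 0.0286, 0.0318, 0.0435 and 0.0406). B cell markers, led by Cd79a, summed to 42.5, 4.95 and 3.54 against 21.9, 57.1 and 89.4, and erythroid markers, led by Slc4a1, to 113, 39.0 and 36.4 against 91.8, 1477 and 687. In both of these lists control replicate 1 stood above the control pair and the first library labelled AF-PTK@LEV@SPP1 under the others of its label. Cd8a was the gene that passed among 5 T cell markers, lower, beside 2.57% of all genes tested. Chad, a cartilage matrix protein, was the gene that passed among 11 annulus and cartilage markers, higher, beside 1.13% of all genes tested. With the control pair summed, no gene passed among 5 markers of endothelium and 5 of plasmacytoid dendritic cells. None passed among 3 of all leukocytes, 5 of osteoblasts and 5 tested of skeletal muscle either. The muscle list, led by Acta1, nonetheless summed to 814, 1078 and 1093 in control and 808, 8456 and 2126 under the label AF-PTK@LEV@SPP1, so that replicate 2 of that label stood far apart. The part of cell content in the differences of Tlr2, Cd14 and Ly96 was not tested. The ratios that follow set counts beside a sum of macrophage markers, which is led by Lyz2 and is not a measure of macrophage number. The osteoclast markers are not in that sum.

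Counts of each sensor were set against the summed counts of the 14 macrophage markers in the same library. Per 1000 marker counts there were 28.6, 38.0 and 38.3 of Tlr2 in control and 11.1, 8.05 and 9.13 in libraries labelled AF-PTK@LEV@SPP1. Tlr2 was thus lower in every library of that label relative to the markers as well, by 3.54-fold in the means. Cd14 had 47.8, 63.4 and 63.9 against 51.8, 17.4 and 20, and Ly96 had 8.94, 12.9 and 13.8 against 13.8, 6.13 and 6.88. The groups overlapped for both: in the first library labelled AF-PTK@LEV@SPP1, where Lyz2 was low at 272 normalized CPM, Cd14 lay among the controls and Ly96 just above the highest of them. With Lyz2 left out of the sum, a choice made after its values were seen, Cd14 no longer overlapped (113, 159 and 158 against 82.2, 43.4 and 61.4 per 1000 counts of 13 markers), Tlr2 was 3.72-fold lower, and Ly96 still overlapped (21.2, 32.4 and 34.1 against 21.9, 15.3 and 21.2). Tlr5 was higher relative to the 14 markers in every library of the label, at 14.8, 7.70 and 6.99 against 3.03, 2.20 and 1.69, and so was Tlr9, at 2.00, 1.05 and 0.823 against 0.421, 0.458 and 0.438. Exact two-sided permutation tests of these log2 ratios gave p = 0.1 for Tlr2, Tlr5 and Tlr9 and 0.3 and 0.6 for Cd14 and Ly96, unadjusted over the 10 genes.

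**Figure D2:**
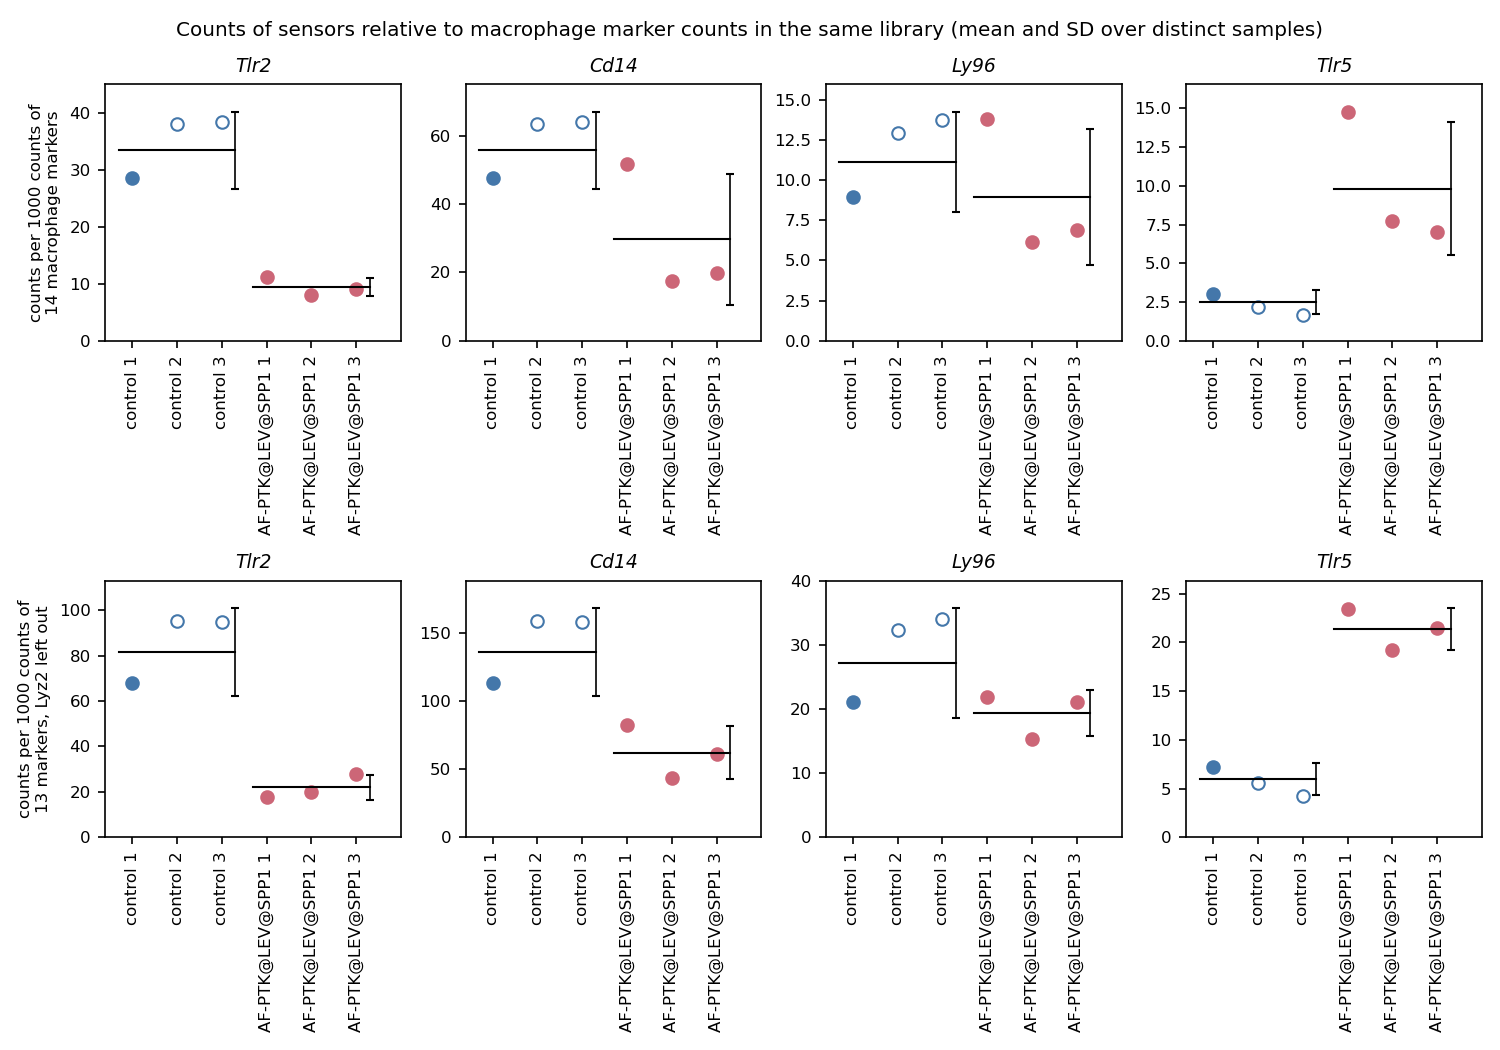
Counts of Tlr2, Cd14, Ly96 and Tlr5 per 1000 counts of macrophage markers in the same library, with all 14 markers in the upper panels and Lyz2 left out in the lower ones; control in blue, AF-PTK@LEV@SPP1 in red, open circles for the near-identical pair, bars for mean and SD over distinct samples (n = 2 and n = 3). Tlr2 is lower and Tlr5 higher in every library labelled AF-PTK@LEV@SPP1 in both rows, while Ly96 overlaps in both.

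The wider pathway was read from 9 further lists holding 108 genes of the table, of which 99 were tested. The lists were drawn up with earlier results from these same libraries known, so their shares beside all genes describe and do not test. Of these 20 (20.2%) passed as lower in libraries labelled AF-PTK@LEV@SPP1 and none as higher, beside 2.57% and 1.13% of all genes tested, and the median log2 fold change was -0.45 against 0.05 over all genes tested. Of the 20, 10 are genes that LPS induces and 4 are inhibitors of the pathway, while none came from the list of adaptors and kinases downstream of Toll-like receptors. As for the sensors, no gene of these lists passed without the library labelled AF-PTK@LEV@SPP1 replicate 2 or 3 or without the control pair, and 12 passed without replicate 1 of that label.

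**Figure D3:**
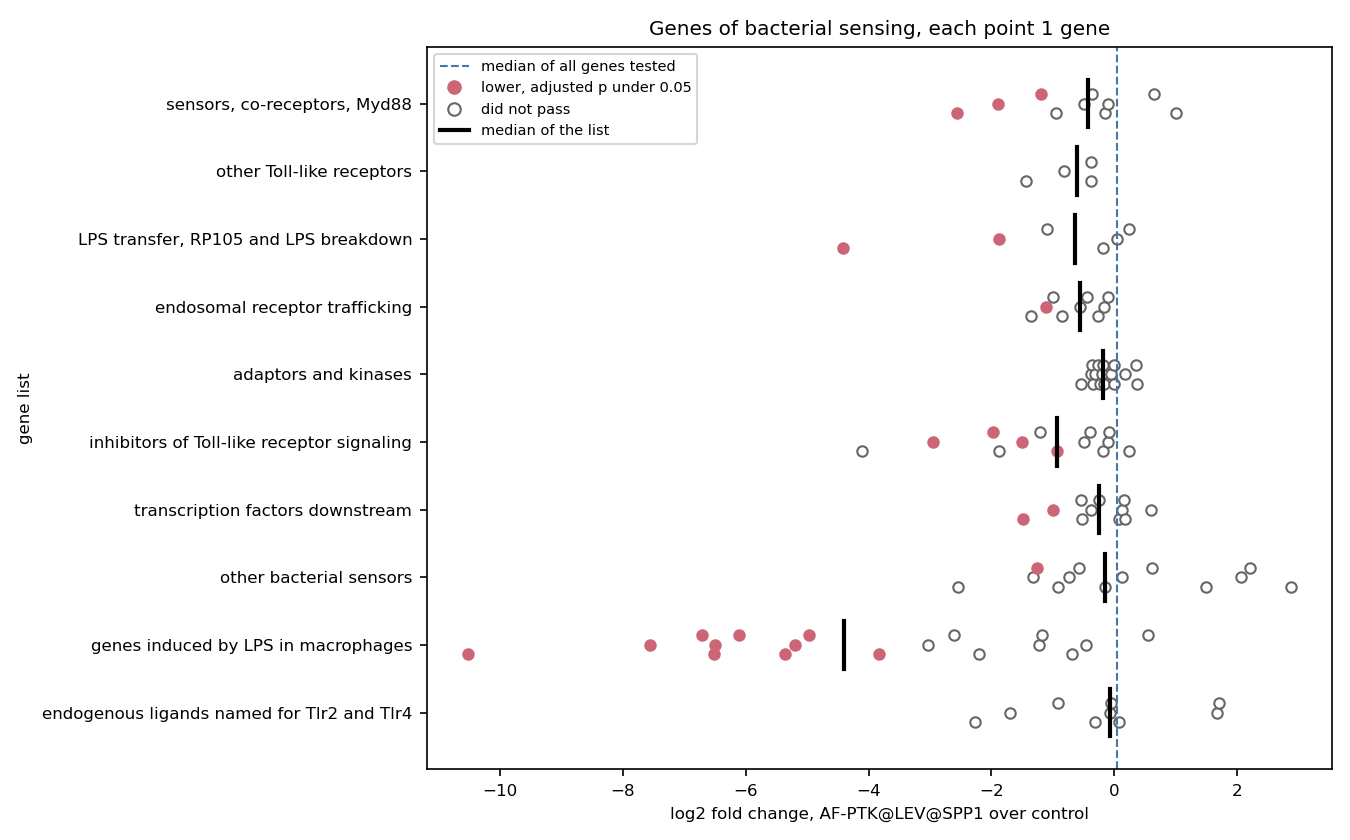
Log2 fold change of each tested gene of 10 lists, AF-PTK@LEV@SPP1 over control, from edgeR on 5 distinct samples; red points passed at an adjusted p under 0.05, black bars are list medians, and the dashed line is the median of all genes tested (0.05). Genes induced by LPS lie farthest to the left with a median of -4.39, where 3 points (Il1a, Il10 and Cxcl3) had at most 3 counts in every library labelled AF-PTK@LEV@SPP1 and are fitted values, not bounds.

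The other Toll-like receptors gave no call. Of 7 in the table, 4 were tested. Tlr13, an endosomal receptor for bacterial ribosomal RNA that rodents have, stood at 51.7, 41.7 and 44.9 normalized CPM in control and 11.9, 22.9 and 18.2 in libraries labelled AF-PTK@LEV@SPP1. The groups were apart, and the log2 fold change of -1.44 had an adjusted p of 0.0616 from edgeR, or 0.0157 with the 6 libraries kept as separate samples. Tlr8, another receptor of single-stranded RNA, had a log2 fold change of -0.81 (edgeR adjusted p = 0.164), and the Tlr2 partners Tlr1 and Tlr6 had -0.39 and -0.37 (edgeR adjusted p = 0.692 and 0.483). Tlr10, Tlr11 and Tlr12 were under 1 normalized CPM in every library and did not enter the test.

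Of 6 tested genes of LPS transfer, the RP105 complex and LPS breakdown, 2 passed as lower, beside 2.57% of all genes tested. Lbp, the serum protein that extracts LPS from membranes and delivers it to Cd14, had 1303, 2838 and 2828 normalized CPM in control and 83.6, 83.9 and 126 in libraries labelled AF-PTK@LEV@SPP1. Each library of that label was more than 10 times lower than the lowest control library, and the log2 fold change was -4.41 with a standard error of 0.43 (edgeR adjusted p = 0.0209). Msr1, a macrophage scavenger receptor that takes up lipid A, was 3.64-fold lower (log2 fold change -1.87, edgeR adjusted p = 0.0463). Trem1, which amplifies responses to LPS in myeloid cells, had 12.1, 12 and 12 against 1.41, 7.06 and 8.49, apart but spread widely under the label AF-PTK@LEV@SPP1, and did not pass (edgeR adjusted p = 0.361). The RP105 complex, a relative of Tlr4 with Ly96, is formed by Cd180 and Ly86, which had log2 fold changes of -0.18 and 0.25, and Aoah, the enzyme that deacylates LPS, had 0.04, and none of these passed (adjusted p from 0.796 to 0.974 in edgeR). Marco had no count in any library, Bpi had at most 5 counts, and Cd36 was not found by name in the table.

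Genes that carry receptors to the endosome or cut them there gave 1 call among 9, beside 3.70% of all genes tested. Lgmn, an asparagine endopeptidase that takes part in cleaving Tlr9, had 348, 319 and 307 normalized CPM in control and 153, 161 and 148 in libraries labelled AF-PTK@LEV@SPP1, and its log2 fold change was -1.11 (edgeR adjusted p = 0.0231). The cathepsins Ctsb and Ctss were also apart between the groups but did not pass (log2 fold change -1.0 and -1.35, edgeR adjusted p = 0.0582 and 0.0601). Both passed with the 6 libraries kept (edgeR adjusted p = 0.00949 and 0.0197). Hsp90b1, a chaperone of Toll-like receptors, had a log2 fold change of -0.56 (edgeR adjusted p = 0.174), and Ap3b1, a subunit of the adaptor complex AP-3, had -0.17 (edgeR adjusted p = 0.383).

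None of the 16 tested adaptors and kinases downstream of the receptors passed in edgeR, with the pair summed or with the 6 libraries kept. Their median log2 fold change was -0.19, and their summed level was 600, 588 and 593 normalized CPM in control against 509, 568 and 538. Tab2, Map3k7, Irak1 and Tbk1, the most abundant of them, had log2 fold changes of -0.05, -0.22, -0.26 and -0.18 (edgeR adjusted p = 0.778, 0.255, 0.249 and 0.295). Ticam1 was not found by name in the table, and Tab1 had at most 3 counts in every library.

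Inhibitors of the pathway gave 4 calls among 13 tested, all lower, beside 2.57% of all genes tested. Socs3, which damps cytokine signals, had 114, 161 and 157 normalized CPM in control and 18.3, 15.3 and 19.7 in libraries labelled AF-PTK@LEV@SPP1 (log2 fold change -2.95, standard error 0.20, edgeR adjusted p = 0.0119). Zc3h12a, a ribonuclease that degrades inflammatory transcripts, had 37.7, 39.2 and 39.7 against 9.11, 9.41 and 10.9 (log2 fold change -1.98, adjusted p = 0.0119). In both genes the libraries of each group lay near each other and the groups far apart. Tnfaip3, the ubiquitin-editing enzyme A20, was 2.83-fold lower and Irak3, a kinase relative that blocks signaling from Myd88, 1.90-fold lower (edgeR adjusted p = 0.0196 and 0.0391). Tnip1, Tollip and Cyld did not pass, with log2 fold changes of -0.39, -0.11 and 0.24 (edgeR adjusted p = 0.0952, 0.606 and 0.292). With the 6 libraries kept, which counts the near-identical pair as separate samples, 7 of these inhibitors passed beside 18.1% of all genes.

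Among 11 transcription factors downstream, 2 passed as lower, beside 2.57% of all genes tested. These were Nfkb2 and Relb, the pair of the non-canonical NF-κB pathway, lower by 1.99-fold and 2.79-fold (log2 fold change -1.0 and -1.49, edgeR adjusted p = 0.0337 and 0.0255). Relb had 12.8, 13.4 and 15.6 normalized CPM in control and 4.53, 4.77 and 5.36 in libraries labelled AF-PTK@LEV@SPP1. Nfkb1 had a log2 fold change of -0.54 (edgeR adjusted p = 0.0623, and 0.0112 with the 6 libraries kept), and Rela, whose groups overlapped, one of 0.12 (edgeR adjusted p = 0.614). The AP-1 genes Jun and Fos varied within both groups, Fos from 26.2 to 105 in control and from 26.4 to 119 under the label AF-PTK@LEV@SPP1, and did not pass (edgeR adjusted p = 0.757 and 0.962).

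Other sensors of bacteria gave 1 call among 13, beside 3.70% of all genes tested. Ripk2, the kinase through which Nod1 and Nod2 signal, had 47.9, 38.7 and 43.7 normalized CPM in control and 18.7, 20.3 and 17.0 in libraries labelled AF-PTK@LEV@SPP1 (log2 fold change -1.26, standard error 0.13, edgeR adjusted p = 0.0221). Its groups were apart while those of Nod1 overlapped (log2 fold change -0.16, adjusted p = 0.509), as did those of Nod2. Casp4, the caspase that binds cytoplasmic LPS, did not pass (log2 fold change -0.73, edgeR adjusted p = 0.119, and 0.0421 with the 6 libraries kept). The C-type lectins Clec7a and Clec4d were lowest in the first library labelled AF-PTK@LEV@SPP1, at 9.53 and 3.29 normalized CPM, and did not pass (edgeR adjusted p = 0.424 and 0.220).

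Of 18 tested genes that LPS induces in macrophages, 10 passed, all lower, beside 2.57% of all genes tested. The median log2 fold change of the 18 was -4.39, also with 3 genes set at the bound that a floor of 3 counts allows. This list was drawn up with earlier results from these libraries known, and the study reports several of its genes as lowered. Its share and median thus describe and do not test. The called genes were the cytokines Il1a, Il6 and Il10, the chemokines Cxcl1, Cxcl2, Cxcl3, Ccl2 and Ccl3, and the enzymes Ptgs2 and Nos2. Ptgs2, the inducible cyclooxygenase, had 40.6, 198 and 197 normalized CPM in control and 3.23, 3.86 and 4.45 in libraries labelled AF-PTK@LEV@SPP1 (log2 fold change -4.96, edgeR adjusted p = 0.0367). Control replicate 1 was low among the controls for Ptgs2, yet above every library of the other group. Cxcl1 had 50.5, 101 and 107 against 0.176, 1.03 and 1.31 (log2 fold change -6.52, edgeR adjusted p = 0.0221), and Ccl3 had 9.50, 20.7 and 20.1 against 0.882, 1.39 and 0.912 (log2 fold change -3.83, adjusted p = 0.0234). The other called genes had log2 fold changes of -5.36 for Il6, -7.56 for Cxcl2, -5.20 for Ccl2 and -6.50 for Nos2. Il1a had at most 3 counts in all 3 libraries labelled AF-PTK@LEV@SPP1, and was at least 61.5-fold lower, and Il10 and Cxcl3, also at or under that floor, were at least 32.7-fold and 213-fold lower. Reads of Cxcl1, Cxcl2 and Cxcl3 could be shared because the genes are close relatives, and the span of Ccl3 overlaps that of Ccl4 on the other strand. Il1b, Ccl4, Lcn2 and Cd40 did not pass (edgeR adjusted p = 0.0743, 0.0736, 0.568 and 0.246), and Lcn2 spread from 25.8 to 288 within control. The groups were apart for Il1b and Ccl4, at log2 fold changes of -2.61 and -2.19. Both passed as lower with the 6 libraries kept (edgeR adjusted p = 0.0187 and 0.0170). Tnf, Cxcl10 and Ccl5 overlapped between the groups and did not pass. Their log2 fold changes were -1.18, -0.46 and 0.54 (edgeR adjusted p = 0.435, 0.664 and 0.528). Acod1 was apart at -3.04 and did not pass (edgeR adjusted p = 0.115, and 0.0367 with the 6 libraries kept).

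No gene passed among 9 endogenous molecules named as ligands of Tlr2 and Tlr4. Fibronectin (Fn1) had 11972, 27259 and 26986 normalized CPM in control and 6868, 4854 and 6441 in libraries labelled AF-PTK@LEV@SPP1, and tenascin C (Tnc) had 931, 4262 and 4271 against 617, 433 and 578. The groups were apart in both genes, with control replicate 1 nearest to the other group, and neither passed at log2 fold changes of -1.70 and -2.27 (edgeR adjusted p = 0.107 and 0.112; 0.0277 and 0.0330 with the 6 libraries kept). The proteoglycans decorin (Dcn) and biglycan (Bgn) had log2 fold changes of -0.91 and -0.08 (edgeR adjusted p = 0.226 and 0.907). S100a8 and S100a9, which form calprotectin, are also in the neutrophil list and followed its spread, S100a8 from 64.5 to 475 in control and from 99.1 to 1490 under the label AF-PTK@LEV@SPP1.

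Promoter windows from RefSeq on the GRCr8 assembly, from 250 bases before to 50 after the gene start, were found for 8 of the 10 genes; those of Ly96 and Nod2 were not. This assembly is not the one of the gene positions above. Each window was searched on both strands for GAGGAA, the core bound by the myeloid factor PU.1, for the AP-1 site TGANTCA, for the κB form GGANTTTCC and for the AANNGAAA form of interferon regulatory factors. The PU.1 core was found in 5 of 8 windows (Tlr3, Tlr4, Tlr7, Tlr9 and Cd14) beside 27.6% of all 33469 windows, AANNGAAA in 6 of 8 (Tlr2, Tlr3, Tlr5, Tlr7, Cd14 and Myd88) beside 26.4%, TGANTCA in 2 of 8 (Tlr9 and Myd88) beside 7.33%, and GGANTTTCC in 0 of 8 beside 1.28%. No match overlapped another. GGANTTTCC is a narrow κB form and no other was searched, so its absence does not show that a window lacks κB sites. The windows of the called genes Tlr2 and Cd14 and of Tlr4, which was not called, are printed 5′ to 3′ on the strand of the gene; capitals mark the matches. Cd14 has GAGGAA at 140 and 105 bases before the start and AANNGAAA at 3, Tlr2 has AANNGAAA at 238 and no GAGGAA, and Tlr4 has GAGGAA at 67 and 55 and no AANNGAAA, a form found in 26.4% of all windows.
Tlr2 promoter (GRCr8 chr2:171504508-171504807, minus strand): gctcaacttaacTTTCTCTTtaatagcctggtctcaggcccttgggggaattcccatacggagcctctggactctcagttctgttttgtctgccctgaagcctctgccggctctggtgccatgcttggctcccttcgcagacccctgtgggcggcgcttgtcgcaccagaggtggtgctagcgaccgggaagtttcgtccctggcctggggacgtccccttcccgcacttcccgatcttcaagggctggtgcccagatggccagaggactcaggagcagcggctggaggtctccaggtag
Cd14 promoter (GRCr8 chr18:28611109-28611408, minus strand): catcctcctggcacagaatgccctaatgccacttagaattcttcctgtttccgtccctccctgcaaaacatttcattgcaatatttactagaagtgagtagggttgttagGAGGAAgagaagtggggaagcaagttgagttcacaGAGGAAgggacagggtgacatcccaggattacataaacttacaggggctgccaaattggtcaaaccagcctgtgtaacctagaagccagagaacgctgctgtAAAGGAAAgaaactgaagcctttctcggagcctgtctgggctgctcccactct
Tlr4 promoter (GRCr8 chr5:85160997-85161296, plus strand): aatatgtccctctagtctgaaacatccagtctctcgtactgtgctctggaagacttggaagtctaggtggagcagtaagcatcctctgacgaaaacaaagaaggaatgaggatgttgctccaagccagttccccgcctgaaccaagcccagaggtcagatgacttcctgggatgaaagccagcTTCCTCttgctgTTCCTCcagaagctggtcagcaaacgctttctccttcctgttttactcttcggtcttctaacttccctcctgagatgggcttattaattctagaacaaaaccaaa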

How the data were processed

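The authors deposited counts, whole numbers of reads per rat Ensembl gene and library; the submitters' processing notes name FastQC, Trimmomatic, HISAT2, featureCounts and DESeq2 without versions, and a mouse genome build although the identifiers are of rat. The rat build of the gene positions, the use of strand and the handling of shared reads were not given in the sources used here. Groups came from the sample records. Columns named IVD and AFPTK with a number were matched to the control and treated records of that number. That IVD means control is an inference from the wording, and every direction rests on it. The study calls its PBS group IVDD. The fit was made in edgeR 4.0.16 under R 4.3.3 (TMM, filterByExpr at its defaults, quasi-likelihood test, Benjamini-Hochberg over all genes tested), with the counts of control replicates 2 and 3 summed because under 1% of genes with at least 20 counts differed. The common biological coefficient of variation was 0.302. Means, SD and exact permutation tests used normalized CPM of the distinct samples. The label of 3 separate animals per group is the submitters'. A library's floor was 3 counts, 0.167 to 0.193 CPM, which covers counting error alone. Alternatives were DESeq2 1.42.0, limma 3.58.1 (voom), other scalings and filters, a robust fit, a fold change threshold, the 6 libraries kept, a replicate block and each library left out. The script was tested on simulated data. Of each pathway list, genes that passed are named, with up to 4 other tested genes of the highest mean level. The ligand list also names S100a8 and S100a9, and the list of genes that LPS induces names all that were tested. Macrophage markers were named by whether their groups overlapped, not by level alone. Genes and lists were chosen with earlier results of these data known. Gene lengths were not used. The most abundant gene of a list is the one with the highest mean normalized CPM, whatever its length. Levels were not compared between genes in any other way.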

Additional observations from a re-analysis of the deposited data

How the results depend on the processing

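The calls of Tlr2, Cd14 and Ly96 were kept under every alternative that kept all samples: the 6 libraries kept, DESeq2, limma-voom, both other scalings, both other filters, the robust fit, the fold change threshold and the replicate block. Over 16 distinct alternatives, Tlr2 passed in 12, Cd14 in 13 and Ly96 in 11, and the other 7 genes in none. When libraries were left out 1 at a time, or the pair together, the number of the 10 genes that passed ranged from 0 to 3, and the number of all genes from 0 to 566, with 0 to 20 among the pathway genes outside them. The counts of 0 arose in edgeR without the library labelled AF-PTK@LEV@SPP1 replicate 2 or 3, where 3109 and 2699 genes still had an unadjusted p under 0.05, and 5 and 4 of the 10 genes did. Without the control pair 3 of all genes passed, none of the 10, of which 3 had an unadjusted p under 0.05. Fits that leave a group with 1 sample assume that it varies like the other group. All genes passing were 2727 with the 6 libraries kept and 2572 in DESeq2, against 575, and pathway genes passing were 34 and 35, against 20; the cause was not tested for DESeq2, while the former counts the near-identical pair as separate samples.

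Tlr4 reversed to 0.19 without the control pair and Nod2 to 0.11 without the library labelled AF-PTK@LEV@SPP1 replicate 1, and without replicate 2 of that label Nod2 stood at -0.46; neither passed in any fit, and the cause was not tested. The number of genes whose groups did not overlap was 6 to 8 of 10 over the scalings and left-out libraries. Same-numbered libraries had correlations of -0.326, -0.282 and -0.0756 between their deviations from the group means, so the numbers do not pair them. With the 6 libraries kept and the replicate number as a block, 741 of all genes, 3 of the 10 and 22 pathway genes passed. The 6 libraries kept without that block gave 2727, 3 and 34. Under the block the adjusted p from edgeR was 0.0414 for Tlr2, 0.0226 for Cd14 and 0.0398 for Ly96. Alternatives for the pathway lists, the overlap, the pair and the marker ratios were chosen after seeing the data. Tlr9 had 15 to 36 counts per library and Nod2 31 to 78.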
